A study of Macaca mulatta with 23 samples.

Results

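DNA methylation of the right amygdala was compared with that of the left in 21 of the 23 libraries of the series, each from a different young rhesus monkey (Macaca mulatta). Membership followed the hemisphere label, after leaving out the libraries named left 3 and right 9. In left 3, 49.7% of the positions had no value. In right 9, 38.6% of the values at positions of intermediate level (a mean of 20% to 80%) stood at exactly 0 or 100%. This left 11 right and 10 left libraries. All samples were genomic DNA of the central nucleus of the amygdala, profiled by reduced representation bisulfite sequencing, in which MspI fragments enrich CpG-rich DNA and bisulfite marks unmethylated cytosines. The monkeys had received no treatment that the labels name, and each gave a single hemisphere, so right and left samples came from different animals. Right monkeys were 1.1 to 1.64 years old (mean 1.33 ± 0.172, SD, n = 11) and left monkeys 1.1 to 2.13 years (mean 1.36 ± 0.286, SD, n = 10).

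The central nucleus is an output nucleus of the amygdala that takes part in fear, anxiety and pain responses, and the amygdala of each side is often studied separately. Methylation of CpG dinucleotides is low in most dense CpG clusters, known as CpG islands, and high in most sparse DNA. An intermediate level means that only some of the DNA molecules in the sample carried the mark, as when cell types or alleles differ. In bulk tissue, a change in the share of a cell type and a change of level within cells cannot be told apart. Levels are given in percent and differences in percentage points, always as right minus left. Positions carry hg19 coordinates, the human build on which the deposited table is based, and no gene names.

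Age, score, identifiers and library quality were compared between the hemispheres first. The anxious temperament score averaged -0.0173 ± 0.812 (SD, n = 11) in right and 0.122 ± 0.762 (SD, n = 10) in left monkeys (permutation p = 0.689, adjusted p = 0.807 over 4 measures). Identifiers starting with r, in place of B, belonged to 5 right and 5 left monkeys, against 6 right and 5 left with B (Fisher's exact test, p = 1). Right libraries lacked 6.22% ± 4.95 of the positions (SD, n = 11) and left libraries 3.53% ± 5.22 (SD, n = 10; permutation p = 0.241, adjusted p = 0.482). Values of exactly 0 or 100% made up 3.89% ± 1.45 of intermediate positions in right and 2.98% ± 1.85 in left libraries (permutation p = 0.227, adjusted p = 0.482). Left 4, right 4 and right 12 kept their place in the comparison but lacked 18.3%, 15.7% and 14.2% of the positions. Read counts are not part of the deposited levels, and the depth behind each value is unknown.

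The first question was whether methylation as a whole, or in any class of CpG, stood higher on one side. At the 255732 positions measured in all 21 libraries, right libraries ran from 22.71% to 24.18% with a median of 23.88%, and left libraries from 22.74% to 24.45% with a median of 23.62%. The groups covered almost the same range. Their means were 23.67% ± 0.541 (SD, n = 11) and 23.63% ± 0.596 (SD, n = 10), a difference of 0.0417 ± 0.249 points (SE; permutation p = 0.867, adjusted p = 0.992 over 20 classes). Across positions, which are not independent replicates, the right mean and the left mean had a correlation of 0.9973.

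CpG density was taken as the number of measured positions in a run with gaps of at most 200 bp. CpGs without a measured position do not count, so run size is only a proxy for density. In the densest class, runs of 50 or more positions, right libraries averaged 13.3% ± 0.518 (SD, n = 11) and left libraries 13.25% ± 0.564 (SD, n = 10), with a difference of 0.0558 ± 0.237 points. Runs of 10 to 49 positions, which hold 59.4% of the table, differed by 0.0507 ± 0.237 points. Runs of 3 to 9 positions had higher levels, 42.82% ± 0.977 in right and 42.83% ± 1.07 in left libraries (SD, n = 11 and 10), and a difference of -0.00451 ± 0.449. The sparsest positions, alone or in pairs, averaged 36.34% ± 1.13 and 36.44% ± 1.13 (SD, n = 11 and 10) and differed by -0.102 ± 0.495 (SE). The plot of density classes shows that the ranges of right and left points overlap broadly in each class. The permutation p ran from 0.816 to 0.992 over these 4 classes, and the adjusted p was 0.992 for each.

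**Figure D1:**
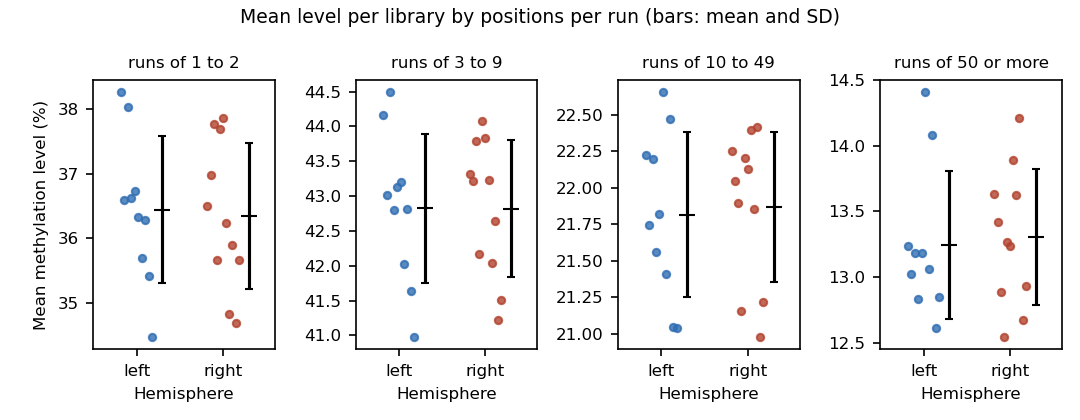
Mean methylation level (%) of each library over positions measured in all 21 libraries, by the number of measured positions per run; points are libraries and bars the mean and SD of 10 left and 11 right libraries. The mean differences between hemispheres, 0.0558 points in runs of 50 or more and -0.102 in runs of 1 to 2, are smaller than the SD within each hemisphere.

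Classes of level gave the same picture. Positions under 20% averaged 2.55% ± 0.408 (SD, n = 11) in right and 2.517% ± 0.475 (SD, n = 10) in left libraries. Positions over 80% averaged 91.67% ± 0.97 and 91.66% ± 0.762 (SD, n = 11 and 10). Intermediate positions had the widest spread between libraries, 51.57% ± 2.32 in right and 51.45% ± 2.1 in left (SD, n = 11 and 10), and a difference of 0.12 ± 0.963 points (SE; permutation p = 0.903, adjusted p = 0.992). Among the 12 joint classes of density and level, the difference was highest, at 0.251 ± 0.681 points, for intermediate positions of the densest runs, and lowest, at -0.17 ± 1.59, for intermediate positions of the sparsest. No class passed at an adjusted p of 0.05, and the smallest unadjusted permutation p over the 20 was 0.431, for low positions of the sparsest runs. All of these differences are smaller than their standard errors.

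**Figure D2:**
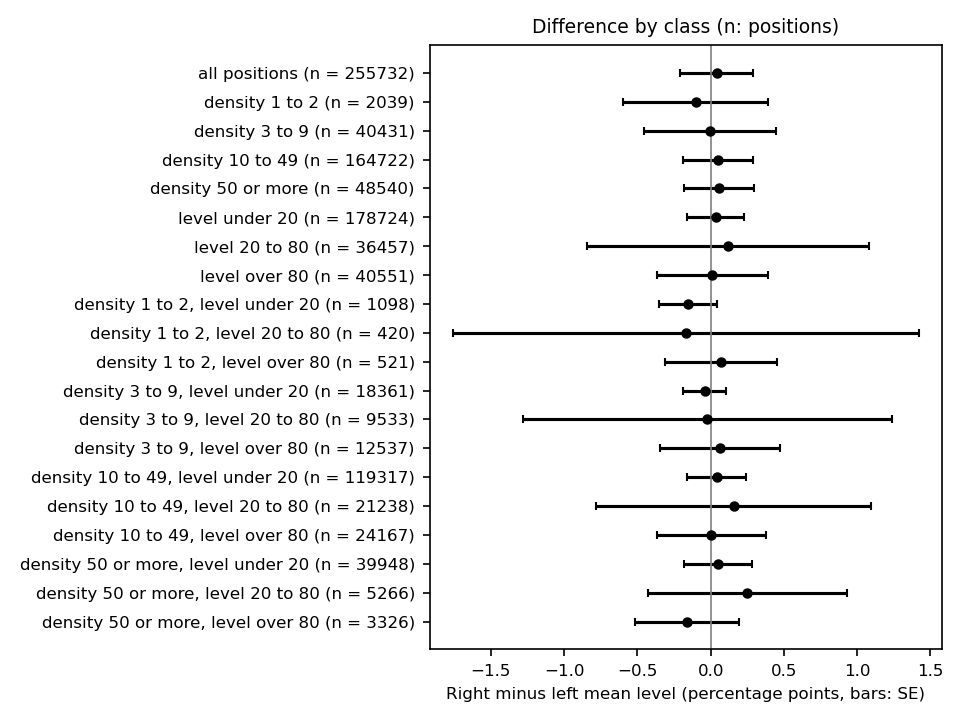
Right minus left mean level (percentage points) for all positions, 4 density classes, 3 level classes and their 12 combinations; points are differences of library means, bars their SE over 11 right and 10 left libraries, and n the positions in each class. Every bar crosses 0, from -0.17 for the lowest to 0.251 points for the highest difference.

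Single positions varied more than these means, mainly at intermediate levels. The right and left means lay within 1 point of each other at 81.6% of positions under 20%, at 40% of those over 80% and at 17.6% of intermediate ones. They were more than 10 points apart at 188 low, 333 high and 2535 intermediate positions. In the densest runs 74.7% of positions lay within 1 point, against 47.6% in runs of 3 to 9. Where the right mean differed from the left, it was higher at 50.5% of all complete positions and lower at 47.5%. Nearby positions differed alike. Across intermediate positions, the right minus left difference had a correlation of 0.382 between positions 1 bp apart and 0.47 at 2 to 10 bp. It was 0.41 at 11 to 50 bp, 0.293 at 51 to 200 bp and 0.0737 at 201 to 1000 bp. Farther apart it was 0.0448 at 1001 to 10000 bp and 0.0041 at 10001 to 100000 bp. Such pairs share animals and often reads, so these values are descriptions. Neighbouring cytosines 1 bp apart, as both strands of a CpG would be, made up 52.4% of the positions.

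The comparison by genomic block began with chromosomes. The difference lay between -0.257 and 0.149 points on the 22 autosomes and the X chromosome. Chromosome 19, the most methylated autosome here, averaged 33.01% ± 0.724 (SD, n = 11) in right and 32.86% ± 0.537 (SD, n = 10) in left libraries. Chromosome 21 had the lowest difference of the autosomes, -0.257 ± 0.259 points (SE; permutation p = 0.33, adjusted p = 0.987 over 24 chromosomes). On the X chromosome the difference was 0.0948 ± 0.223. The Y chromosome, with only 124 positions, ran from 54.2% to 60.02% in right libraries (median 56.92%) and from 56.24% to 60.15% in left libraries (median 58.36%). There 4 of 11 right libraries lay below every left one. The Y difference was -1.19 ± 0.68 points (SE; permutation p = 0.103, adjusted p = 0.987). It was -1.34 within the monkeys with r identifiers and -1.08 within those with B.

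Fixed 5 Mb blocks were fitted with limma, with score and age as terms, as were positions and regions below. None of the 555 blocks passed at an adjusted p of 0.05 (0% called). Unadjusted, the p was under 0.05 in 5 blocks (0.901%) and under 0.01 in 1 (0.18%). Block differences were small: the lowest was -1.074 points and the highest 1.556, and the 95% interval lay wholly within 2 points of 0 in 542 blocks (97.7%). Right was higher in 325 blocks and lower in 230. Blocks share the overall level of a library, so this split does not count independent differences. Chromosome 21 was higher in right in 2 of its 6 blocks and chromosome 19 in 9 of 11.

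The block with the smallest p spans chromosome 4 from 165000001 to 170000000, starting in band 4q32.3, with 187 positions. Right libraries ran from 33.01% to 37.93% (median 35.14%) and left libraries from 32.77% to 34.71% (median 33.8%). Of the 11 right libraries, 7 lay above every left one, and 3 lay below the left median. The adjusted difference was 1.423 ± 0.471 points (SE, n = 21; limma p = 0.00552, adjusted p = 0.998). It was carried by the 59 intermediate positions, with a mean of 4.26 points, against 0.0944 at the others. On chromosome 13 from 100000001 to 105000000, 11 of 11 right libraries lay above the left median, with a difference of 0.603 ± 0.256 points. It was 1.04 ± 0.304 within B and 0.158 ± 0.446 within r identifiers, and the difference between them was not tested. That block holds 406 positions, 365 of them under 20%. Blocks on chromosome 8 from 75000001 to 80000000 and on chromosome 11 from 130000001 to 135000000 stood 0.987 ± 0.421 and 0.725 ± 0.324 points higher in right libraries. The fifth, on chromosome 6 from 150000001 to 155000000, was 0.752 ± 0.36 points higher in left libraries. The limma adjusted p was 0.998 for each of these 4 blocks.

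**Figure D3:**
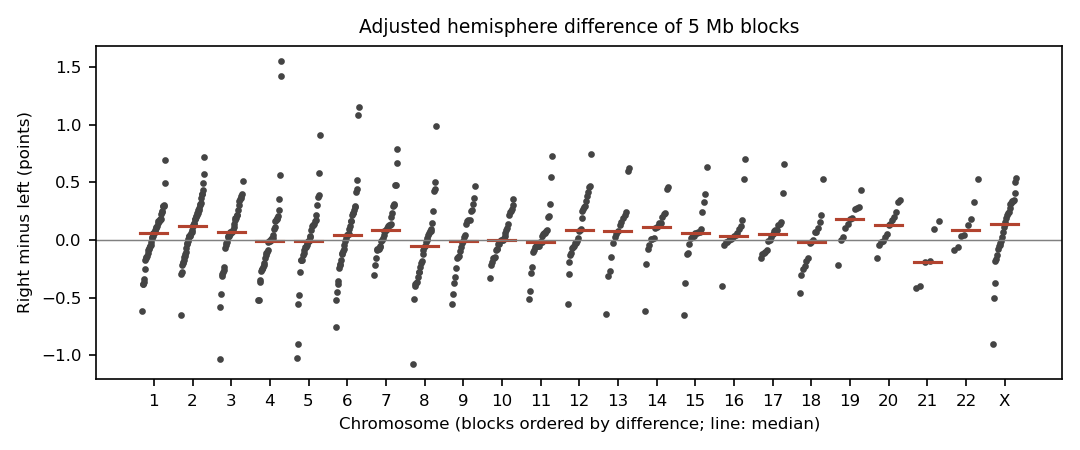
Right minus left level (percentage points, adjusted for score and age) of 555 blocks of 5 Mb, ordered by difference within each chromosome; each point is a block and the line the median of the chromosome. All points lie between -1.074 and 1.556.

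Of 205663 single positions tested with limma, 0 were called at 5% false discovery (0%), and the lowest adjusted p was 0.981. Tested positions had values in at least 18 libraries and a range of at least 10 points. The unadjusted p was under 0.05 at 7963 positions (3.87%). It was under 0.01 at 1266 (0.616%), of which 711 were higher and 555 lower in right libraries. At no tested position were the right and left values free of overlap (0%). The 95% interval of the difference lay within 10 points of 0 at 54.5% of positions and within 20 points at 88%, so differences beyond 20 points were possible at the rest.

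The 1266 positions were 0.616% of those tested, a share below the p threshold of 0.01 itself. Nearby positions differed alike, so counts of them are descriptions, and their split by level was not tested. Their direction differed between classes of level. Among positions over 80%, 311 were higher and 145 lower in right libraries. At intermediate levels the counts were 281 and 198, and under 20% they were 119 and 212. Over all tested positions the direction did not follow level in this way: right was higher at 50.6% of high, 51% of intermediate and 53.1% of low positions. The right libraries also held the larger share of values at exactly 0 or 100% (3.89% against 2.98%) and of missing values (6.22% against 3.53%). With the missing share as a term, chosen for this split after seeing the data, 1928 positions had p under 0.01, with 409 higher and 160 lower over 80%, 484 and 267 at intermediate levels, and 234 and 374 under 20%. The part of the values at exactly 0 or 100% was not tested. The share under 0.01 was 0.494% of low, 0.693% of intermediate and 0.656% of high positions, near the 0.616% of all. By density it ran from 0.58% in the densest runs to 0.693% in runs of 3 to 9.

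The 10 positions with the smallest p had limma adjusted p of 0.981 throughout. The first lies on chromosome 7 at 87817637 (7q21.12). Right libraries ran from 86% to 98% (median 91%), while left libraries ran from 38% to 92% (median 49.5%). Left libraries fell into 2 sets there, with 6 at 38% to 50% and 4 at 87% to 92%, and no right library stood in the lower set. The adjusted difference was 30.51 ± 5.5 points (SE, n = 21; limma p = 1.48e-05). It was 37.8 ± 7.35 within r and 24.1 ± 8.06 within B identifiers. No other measured position lies within 50 bp.

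At several of the other positions the neighbours within 50 bp differed less than the position itself. At chromosome 19, 7709633 (19p13.2), right libraries ran from 97% to 100% (median 100%) and left libraries from 90% to 100% (median 91%), with 8 of 9 left values below the lowest right value. Its difference was 6.629 ± 1.17 points (SE, n = 19), while the 3 positions within 50 bp differed by -1.33 to 0.7. At chromosome 10, 96311788 (10q23.33), 8 of 11 right libraries lay above every left one, with medians of 97% and 85.5% and a difference of 12.25 ± 2.51 (SE, n = 21). Of its 4 neighbours 3 were also higher in right libraries, but the 4 differed only by -2.9 to 2.84 points. The one 2 bp away differed by 0.745. At chromosome 11, 64055169 (11q13.1), right libraries had a median of 0 and a highest value of 6%, against 5% to 12% in left libraries (median 10%). The other cytosine of that pair, 1 bp away, stood at 70% and 72.6%. The 5 neighbours there differed by -2.8 to 6.12 points. At chromosome 22, 50717274 (22q13.33), 8 of 10 left values lay above the highest right value (medians 98.5% and 87.5%), while the position 1 bp away stood at 4% in right and 8% in left libraries. Of its 3 neighbours 2 were also lower in right libraries.

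At other positions some neighbours had larger differences in the same direction. A shared direction is common nearby: across intermediate positions, 64.9% of pairs 11 to 50 bp apart had the same sign. Chromosome 16, 75148464 (16q23.1) had right levels of 68% to 100% (median 88%) and left levels of 50% to 81% (median 66.5%). Of its 21 neighbours within 50 bp, 18 were higher in right libraries, by up to 10 points, and its whole run of 34 positions was 4.14 ± 2.59 points higher (SE; limma p = 0.127, adjusted p = 0.998). Chromosome 1, 155239320 (1q22) was lower in right libraries, with medians of 22% and 45% and a difference of -18.93 ± 3.93 (SE, n = 19). Of its 14 neighbours 8 were also lower. Positions 12 bp and 3 bp before it differed by -18.7 and -14.6 and one 15 bp after it by -9.18. The others nearby stood above 85% in both hemispheres or, in 1 case, near 5%, and differed by -3 to 2.88 points. Among them, the cytosine 1 bp before 155239320 stood at 90.55% in right and 93.33% in left libraries. Those 1 bp before the similar neighbours just named stood at 94.67% or more on both sides. At chromosome 19, 4544339 (19p13.3) the difference was -14.47 ± 2.76 (SE, n = 20), and 16 of 25 neighbours were also lower in right libraries. The median difference of these neighbours was only -1.01, and the cytosine 1 bp away differed by -1.27. The difference at 4544339 rested more on the B identifiers (-19 ± 3.1) than on the r identifiers (-7.24 ± 5.2), and the difference between them was not tested.

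At 7q22.3, a single run (chromosome 7, 105099181 to 105099297) of 10 measured positions held 2 of these, and its values varied widely between monkeys. At 105099250, right libraries ran from 25% to 100% (median 92%, n = 8) and left libraries from 0 to 73% (median 9.5%, n = 10), a difference of 58.26 ± 11.1 points. At 105099210 it was 51.68 ± 10.6. Position 105099297 was similar and averaged 77.33% in right and 23.3% in left libraries, while 105099254 went the other way, with 43.75% and 81.3%. The other 6 positions of the run averaged 78.25% or more in both hemispheres. These 4 positions moved together from monkey to monkey. Right 11 stood at 95% at each of the first 3 and at 5% at 105099254, and left 9 at 70%, 73%, 70% and 37%. Left 7 stood at 0 at the first 3 and at 100% at 105099254. Right 5, with 75% and 100% at the first 2 and 100% at 105099254, did not follow this order. Counted as 1 region, the run was 10.1 ± 3.33 points higher in right libraries (SE; limma p = 0.00759, adjusted p = 0.998).

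Regions, runs of at least 3 positions averaged per library after centring each position, gave 0 calls among 20891 tested (0%; limma, smallest adjusted p 0.998). Before adjustment, 738 had p under 0.05 (3.53%). Under 0.01 were 119 (0.57%), 76 higher and 43 lower in right libraries. The 95% interval lay within 5 points of 0 in 48.4% of regions and within 10 points in 85%. No region had right and left values without overlap (0%). Regions of 50 or more positions, 285 in all, had 3 under 0.01 (1.05%), regions of 10 to 49 had 37 (0.515%), and regions of 3 to 9 had 79 (0.589%).

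The region with the smallest p lies on chromosome 20 from 48178858 to 48178949 (20q13.13) and holds 4 positions. Right libraries ran from 59.75% to 79.5% (median 71.65%) and left libraries from 47.25% to 67.75% (median 60%), and 8 of 11 right libraries lay above every left one. The difference was 10.64 ± 2.23 points (SE, n = 21; limma p = 0.000123, adjusted p = 0.998), with 9.38 ± 4.1 within r and 11.4 ± 2.28 within B identifiers. At its single positions the difference ran from -0.436 to 24.1 points, so the 4 positions did not move alike.

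The region with the second smallest p, at 1q32.1 (chromosome 1, 205312527 to 205312672), held 22 positions, more than any other of the 10. Right libraries ran from 18.45% to 29.23% (median 24.14%) and left libraries from 13.73% to 22.45% (median 17.8%). Of the 11 right libraries, 8 lay above every left one and all 11 above the left median. The difference was 5.942 ± 1.27 points (SE, n = 21; limma p = 0.000151, adjusted p = 0.998), spread over the run: 19 of 22 positions were higher in right libraries, by up to 11.8 points at 205312613. Both cytosines of a pair 1 bp apart moved alike at several places, as at 205312585 and 205312586 (5.44 and 5.52) and at 205312645 and 205312646 (9.62 and 8.35). They did not at 205312671 and 205312672 (-1.51 and 11.1). Most positions of the run belong to such pairs, so the 19 are not independent. The difference was 4.78 ± 1.81 within r and 6.88 ± 1.45 within B identifiers. Without right 4, which at 18.45% is the lowest right library, it was 6.786 points and passed the limma test (adjusted p = 0.00999). It was the only region called when any single library was left out.

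Of the other 8 regions, 5 were higher in right libraries. The region on chromosome 2 from 173248781 to 173248889 (2q31.1) had right levels of 68.78% to 81% (median 73.67%, n = 9) and left levels of 52.69% to 74.89% (median 66.78%, n = 9), with a difference of 9.257 ± 2.06 points. Its 9 positions differed by -20 to 41.7 points. On chromosome 14 from 36032002 to 36032043 (14q13.2), 7 of 9 left libraries lay below the lowest right one, with a difference of 16.59 ± 3.84. Its 4 positions differed by -7.56 to 63.4 points with a median of 5.17, so the regional difference rested largely on 1 position. On chromosome 14 from 69229735 to 69229911 (14q24.1), all 5 positions were higher in right libraries, and the regional medians were 19.6% and 12.9%. Its position differences were uneven, from 0.591 to 19.2 points with a median of 1.96. On chromosome 22, regions from 50780251 to 50780339 (22q13.33) and from 36397838 to 36397941 (22q12.3) were 8.762 ± 2.11 and 9.048 ± 2.24 points higher in right libraries. Position differences ran from -1.9 to 31.9 (median 1.61) at 22q13.33 and from 0.333 to 25.4 (median 3.39) at 22q12.3. The 22q13.33 region rested more on r identifiers (13.7 ± 1.81) than on B (4.73 ± 3.58), a difference that was not tested.

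The remaining 3 regions were lower in right libraries. On the X chromosome from 118799771 to 118799872 (Xq24), right libraries ran from 56.12% to 82.25% (median 70.75%) and left libraries from 68.75% to 93.25% (median 84.25%). All 8 positions were lower in right libraries there, by 2.3 to 22.8 points, and the regional difference was -10.86 ± 2.93 (SE, n = 20). On chromosome 10 from 116095147 to 116095168 (10q25.3), all 3 positions were lower, with regional medians of 54.33% and 65.67% and a difference of -10.47 ± 2.56 (SE, n = 21). The region on chromosome 7 from 36076935 to 36077043 (7p14.2) was nearly unmethylated, with medians of 0.304% in right and 3.875% in left libraries. Centred means can fall slightly below 0 where a library lacks positions, as the lowest right value there does. The limma adjusted p was 0.998 for each of these 8 regions.

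**Figure D4:**
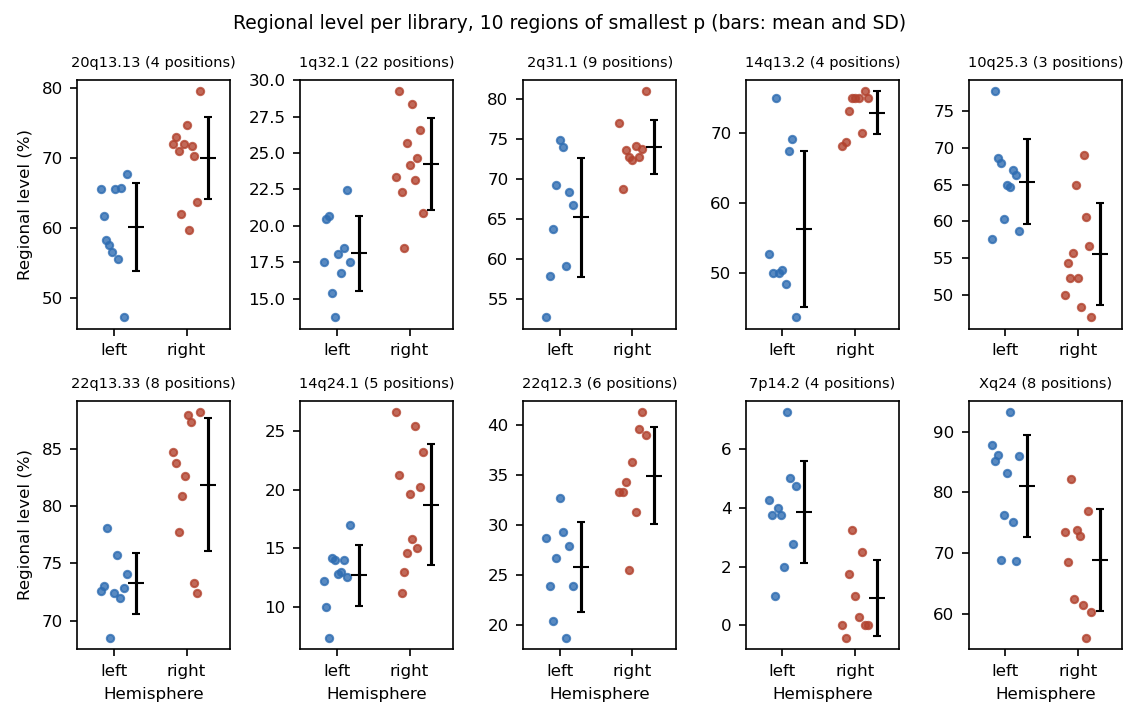
Regional methylation level (%) of each library in the 10 regions of smallest p; points are libraries with values at 50% or more of the region's positions, and bars the mean and SD of each hemisphere. The groups overlap in every panel, and the 1q32.1 panel shows 8 of 11 right libraries above every left one.

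Monkeys with r and with B identifiers share no animal, so the hemisphere difference in one set could be set beside that in the other. No source used here says what the identifiers stand for. Across 19215 regions with values in both, the differences had a correlation of 0.00777, and 49.9% had the same sign. Of the 100 regions with the smallest p in r, 39 had the same sign in B, and their median absolute difference was 9.4 points in r and 2.81 in B. Of the 100 with the smallest p in B, 43 had the same sign in r, with 8.31 points in B and 2.1 in r. With the same sign and an unadjusted limma p under 0.05 in the other set there were 0 and 2. For positions, 478 of the 1000 smallest in r had the same sign in B, and 514 of the 1000 smallest in B had the same sign in r. In 5 Mb blocks the correlation was 0.053 and 40.9% of 555 had the same sign. Features are not independent replicates, so these are descriptions. The 10 regions above were chosen on both sets together, which favours equal signs, and the 8 of them measured in both had the same sign.

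**Figure D5:**
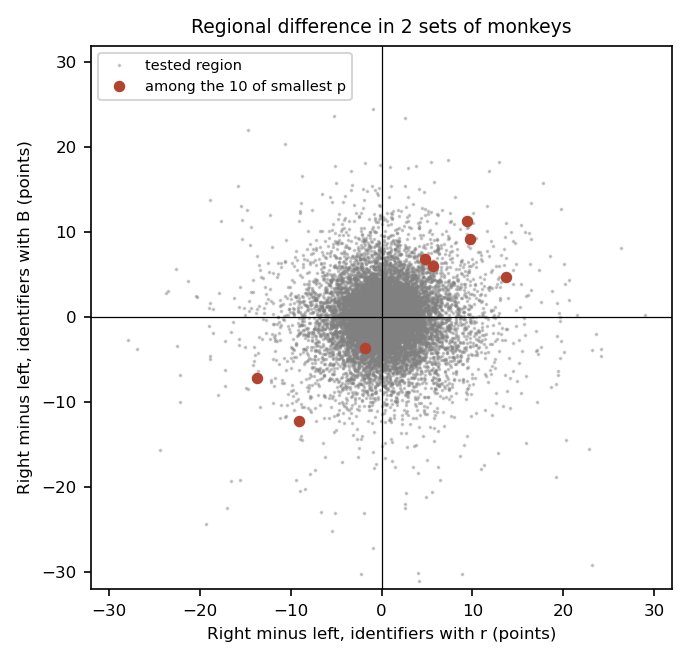
Right minus left regional difference (percentage points, adjusted for score and age) in monkeys with r identifiers (x axis, 5 right and 5 left) against those with B identifiers (y axis, 6 right and 5 left); grey points are 19215 regions, of which 3 lie beyond the axes, and red points 8 of the 10 regions of smallest p. The grey cloud has no slope (correlation 0.00777), and the red points lie in the quadrants of equal sign, which their choice on all monkeys favours.

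Pairs of libraries from the same side and from different sides were about equally alike. The mean correlation across complete positions was 0.9688 over 55 right pairs, 0.9744 over 45 left pairs and 0.9717 over 110 mixed pairs. For deviations from the position mean at intermediate positions it was -0.0502, -0.0523 and -0.0472. Taking deviations from the mean of the same libraries by itself sets such values slightly below 0, so only their likeness can be read. None of the first 5 principal components separated the hemispheres. The first held 17.1% of the variance (permutation p = 0.432, adjusted p = 0.72 over 5), and the smallest p, 0.105 (adjusted p = 0.524), was that of the fourth.

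The spread within each hemisphere was compared as the root mean square distance of a library from the mean of the others on its side. Right libraries ran from 5.64 to 8.51 points (median 6.39) and left libraries from 5.17 to 8.37 (median 5.82). Their means were 6.56 ± 0.814 (SD, n = 11) and 5.96 ± 0.916 (SD, n = 10), a difference of 0.592 points (permutation p = 0.141). The SD over libraries was larger in right than in left at 57.5% of positions. Without left 4, at 8.37 the left library farthest from the others, the difference was 0.866 (exact permutation p = 0.0042). It was 1.25 points within r identifiers (exact permutation p = 0.00794, the smallest that design can give) and -0.012 within B (exact permutation p = 0.991). In the r set, right libraries lacked 1.85% to 15.7% of positions and left libraries 0.751% to 3.04%. Distance followed the share of missing values closely, with r = 0.917 (permutation p = 1e-05, the smallest these permutations can give) and rho = 0.906 (permutation p = 1e-05). That r was 0.927 without left 4 and right 4, 0.912 within r and 0.925 within B identifiers. With the missing share as a term, the difference in spread was 0.176 points (permutation p = 0.304).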

How the data were processed

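Libraries were made by MspI digestion and bisulfite treatment, per the labels' protocols, 1 per monkey. Bismark 0.11.1 and hg19 are listed in the submitters' processing notes. The authors deposited methylation levels as a fraction between 0 and 1 for 444312 positions; no source used here gives coverage filters or strand handling. Macaque DNA placed on human coordinates favours conserved sequence.

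Fractions were multiplied by 100. The model for levels was limma's (version 3.58.1, R 4.3.3; trend on the mean level; score, age and hemisphere as terms; Benjamini-Hochberg adjustment over all tested units; 2-sided). Tests needed values in at least 18 libraries and 8 per hemisphere, and a range of at least 10 points (positions) or 5 points (regions). Regional means were centred by position and kept where a library had values at 50% or more of the positions. Blocks held at least 50 complete positions. Library means were tested by 2-sided permutation with 100000 resamples (numpy 2.4.6, Python 3.11.15), and exactly where a group had fewer than 10 values. Within an identifier set, positions and regions needed 4 values per hemisphere. Fits were checked against limma and on simulated data. Files were read with pandas 2.3.3 and the R package data.table (version 1.17.8), bands came from circlize 0.4.16, and figures from matplotlib 3.10.9.

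The members, classes and tests were chosen with earlier results of these data known. Positions, regions and blocks were named by smallest p: 10, 10 and 5. Planned counts near genes need an hg19 annotation and were not run, and the cell types of the tissue were not checked. Nothing says more of the samples than 1 monkey each, so p-values measure the spread between monkeys together with technical spread.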

Additional observations from a re-analysis of the deposited data

Results flagged for a closer look

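In 2 of 82 groups of 4 to 10 libraries examined, 1 library lay far from the others of its hemisphere; chance alone sets aside about 1 in 20 such groups. Both times it was left 1, from the oldest monkey (2.13 years). At chromosome 19, 7709633, left 1 stood at 100% where the next highest left library was at 95%, so that it lay with the right libraries. At chromosome 1, 155239320, it stood at 21% where the next lowest left library was at 40%. All but 2 of the 9 left values there, that of left 1 included, lay within the right range of 7% to 48%.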

How the results depend on the processing

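No position, block, class, chromosome or component passed its threshold under any alternative run, and the only region called was that at 1q32.1 without right 4 (0 to 1 regions called with single libraries left out). A higher coverage minimum was left out because depth is unknown. No paired analysis was possible because right and left libraries come from different monkeys. Counts at an unadjusted p under 0.01 that moved were, for positions, 1928 (0.937% of 205663) with the missing share as a term, 2043 of 389719 (0.524%) with no range filter and 714 of 108212 (0.66%) at complete positions, against 1266 (0.616%) reported, and for regions 195 with the missing share as a term (119 reported). For blocks, with 1 reported, they were 2 with the missing share, 7 with the mean level as a term, 0 in r and 5 in B identifiers, 2 in all 23 libraries, 3 of 1401 in 1 Mb and 0 of 302 in 10 Mb blocks, 0 with positions measured in at least 18 libraries, and 0 to 2 with single libraries left out. Fewer positions entered the fits at complete positions, and fewer monkeys those within identifiers. The cause of these moves was not tested.

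Uncalled class differences changed sign. With all 23 libraries the difference was -0.0998 points for levels over 80% and 0.0584 on chromosome 21. With positions measured in at least 18 libraries it was -0.0159 for runs of 50 or more and -0.0825 for intermediate levels. On the arcsine scale (radians) it was -0.000213 for all positions, 0.000513, -0.000372 and -0.000199 for runs of 3 to 9, 10 to 49 and 50 or more, and -0.00234 for levels under 20%. Adjusted for score and age it was 0.0449 for runs of 3 to 9. With medians over positions it was -0.0182 for runs of 10 to 49, -0.282 for levels under 20% and 0 for intermediate levels. Within r identifiers it was -0.0898 for all positions, 0.0783, 0.102, -0.104 and -0.207 for the 4 density classes from sparse to dense, and -0.205 for levels under 20%. Within B identifiers it was -0.0463 for intermediate levels and -0.0363 for levels over 80%. With single libraries left out it ran from -0.0566 to 0.138 for all positions, from -0.321 to 0.1, -0.21 to 0.181, -0.0359 to 0.144 and -0.0352 to 0.185 for the density classes, and from -0.0612 to 0.139, -0.234 to 0.472 and -0.151 to 0.221 for low, intermediate and high levels.

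The difference in spread ran from 0.4 (without right 12) to 0.866 (without left 4) with single libraries left out. It was 1.27 with all 23 libraries (permutation p = 0.118) and 1.09 at intermediate positions (permutation p = 0.194). It was 1.25 within r and -0.012 within B identifiers; these and the missing share as a term were chosen after seeing the data.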

Other observations

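The libraries that were left out also have values in several of the named regions and positions, and played no part in naming them. Right 9 has many values at exactly 0 or 100%, which limits what its single positions show. At 1q32.1, left 3 stood at 15.68%, within the left range, and right 9 at 19.45%, within both ranges. At 14q24.1, left 3 stood at 7.47% and right 9 at 12.13%, against right libraries of 11.2% to 26.6% and left libraries of 7.4% to 17%. At 7p14.2 they stood at 3.5% and 1.75%, the left library again higher. At 14q13.2, left 3 stood at 76.88%, above every other left library, and right 9 at 73.25%. At 2q31.1 the order was reversed as well, with 75.11% in left 3 and 70.56% in right 9. Only right 9 had values in some other regions. Against the named direction, it stood at 50% in the region of smallest p, below every right library compared. It was likewise contrary at 10q25.3, at 89%, and at 22q13.33, at 66.38%. These lay above and below every compared library of either side, in that order. In the named direction, it stood at 50% at 22q12.3, above every compared library. At chromosome 7, 87817637, left 3 stood at 83% and right 9 at 0, against the named direction. At chromosome 16, 75148464, they stood at 75% and 99%, in the named direction. At chromosome 7, 105099250 and 105099210, left 3 stood at 43% and right 9 at 38% at both, and at chromosome 22, 50717274, both stood at 100%. Right 9 stood at 100% at chromosome 19, 7709633 and at chromosome 10, 96311788, in the named direction. Left 3 stood at 18% at chromosome 11, 64055169, also in the named direction.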
